A study of Mus musculus with 12 samples.

Results

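The 74 histone genes of the deposited table, out of 15217 genes, were described here in NIH-3T3 cells. The rule that selects them uses the gene symbol and no measured value. The 64 genes whose symbols begin with Hist1h to Hist4h form the replication-dependent class, and the 10 genes H2afz, H2afv, H2afx, H2afj, H2afy, H2afy2, H3f3a, H3f3b, H1f0 and H1fx form the variant class. Of the 64, 17 encode H2A, 17 encode H2B, 13 encode H4, 12 encode H3 and 5 encode H1. In GENCODE M21 on GRCm38, 52 of the 64 lie on chromosome 13 and 10 on chromosome 3, and 59 of the 64 have a longest transcript of 1 exon. The variant genes lie on 8 chromosomes.

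NIH-3T3 is an established mouse fibroblast line, labelled wild type. Cultures were left without 4-thiouridine (4sU) or given it at 200 or 800 µM over 2 h. This compound is a uridine analogue that enters RNA made during the labelling period, and iodoacetamide then modifies it so that it is read as C in sequencing (SLAM-seq). The iodoacetamide step took place either after extraction, with the RNA in tubes, or within cells fixed in methanol, and its temperature and duration differed between the procedures. This gave 6 groups of 2 libraries, called A and B: tube and fixed, each without 4sU, with 200 µM and with 800 µM. The labels do not say that A and B came from separate cultures, so the tests measure the spread between these libraries, which may be technical. Each procedure has its own libraries without 4sU, and the 200 µM and 800 µM comparisons of a procedure share them.

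Replication-dependent histone genes supply the core and linker histones that package DNA as it is copied. Their mRNAs are known for ending in a conserved stem-loop bound by the stem-loop binding protein SLBP, in place of a poly(A) tail, and for rapid decay when DNA synthesis stops. Variant histone genes are mostly made throughout the cell cycle as ordinary polyadenylated mRNAs, though the annotated H2afx transcript holds a stem-loop. Among them, H2A.Z (H2afz, H2afv) marks promoters, H2A.X (H2afx) is phosphorylated at DNA breaks, macroH2A (H2afy, H2afy2) is linked to silent chromatin, H3.3 (H3f3a, H3f3b) replaces H3 outside replication, and H1.0 (H1f0) is a linker histone of slowly dividing cells.

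The classes differ in the end-processing signals of their annotated transcripts. The stem-loop was searched as the 16-base pattern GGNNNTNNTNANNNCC anywhere on the transcript strand, with 6 outer pairs that could form (G with T allowed). On the longest coding transcript it was found in 43 of 64 replication-dependent genes, in 1 of 10 variant genes and in 318 of 21901 protein-coding genes (1.45%). The 1 variant is H2afx. The poly(A) signal AATAAA stood within the last 60 bases in 12 of 64 replication-dependent genes, 6 of 10 variant genes and 59.9% of all protein-coding genes. Both motifs are described as letters only, and 10 of the 64 replication-dependent models end at the stop codon, so they hold no 3′ UTR to search. Over all coding transcripts 44 of the 64 had a stem-loop, within the last 60 bases of the model in 22 of them and up to 4884 bases before its end in the rest. The Hist1h1e site lies 1153 bases and the H2afx site 822 bases before the annotated end, and those of Hist1h2ao, Hist1h2ap and Hist1h2ag 31, 3 and 23 bases. The stem-loop sites below are from the genes whose values carry the results, written 5′ to 3′ with the stem-loop in capitals.
Hist1h2ao, chr13:21810893-21810918, + strand: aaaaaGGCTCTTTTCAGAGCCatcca
Hist1h2ap, chr13:21833026-21833049, - strand: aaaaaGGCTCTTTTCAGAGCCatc
Hist1h2ag, chr13:22042478-22042503, - strand: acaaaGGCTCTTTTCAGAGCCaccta
Hist1h1e, chr13:23621777-23621802, - strand: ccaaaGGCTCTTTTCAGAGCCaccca
H2afx, chr9:44335235-44335260, + strand: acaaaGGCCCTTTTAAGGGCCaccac
The core of Hist1h2ao, Hist1h2ap, Hist1h2ag and Hist1h1e was identical, and it was the commonest core, present in 25 of the replication-dependent genes. The core of H2afx was not found in any replication-dependent gene. Poly(A) signals of 4 variants are shown for contrast, with the signal in capitals. The H2afv and H3f3a sites are from the longest coding transcript, and the H2afz and H3f3b sites are from a shorter coding transcript and are not among the 6 counted.
H2afz, chr3:137866790-137866818, + strand: gtggataagctcAATAAAggtcatatccc
H2afv, chr11:6427240-6427269, - strand: caaatgcacagaAATAAAgaaactagcact
H3f3a, chr1:180800836-180800865, - strand: aatttgaaaaatAATAAAagtaccaataga
H3f3b, chr11:116021987-116022016, - strand: ataggccttacaAATAAActagtaagtttg

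Library totals ran from 3629634 to 7762635 counts, and the histone genes held 0.301% to 0.509% of them. Levels below are CPM, counts scaled to a common TMM-adjusted library total. All 12 fibroblast markers of the list were measured, with a summed level of 22390 to 32117 CPM, against at most 17.0 CPM for any list of epithelial, endothelial, haematopoietic, neural or male germ line markers. The table held 2 of 5 epithelial, 4 of 4 endothelial, 4 of 5 haematopoietic, 3 of 4 neural and 1 of 6 male germ line markers. In bulk RNA, fewer cells of one kind, for example in S phase, and less RNA per cell cannot be told apart.

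Most replication-dependent genes gave few counts. The library preparation, and so any selection for poly(A), is not stated, and its part in the low counts of this class and in its level relative to the variants was not tested. Of the 64 genes, 15 averaged 20 or more counts per library, 44 averaged between 1 and 20, and 5 averaged under 1. The 49 genes below 20 together held 122.2 to 337.7 counts in a library. After the filter on low counts, 22 replication-dependent and all 10 variant genes were tested among 11080 genes, so the 22 are the measurable genes and not the class.

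Replication-dependent counts were almost all H2A. Genes of the H2A type held 92.7% to 97.1% of the class in each library, and Hist1h2ao with Hist1h2ap alone held 87.5% to 92.5%. These 2 genes encode H2A, lie on chromosome 13 at 21810465 to 21810944 and 21833026 to 21833507, and share a stretch of 452 bases with 0 mismatches. Their counts differed by -1.5 to 4.0 per library. The deposited values therefore do not separate the copies, and they are read below as 1 signal. Other H2A genes of chromosome 13 also share sequence: 78.9% of the 50-base words of Hist1h2ag, 90.7% of those of Hist1h2ah and 84.6% of those of Hist1h2ai occur in another histone gene. Values of single H2A genes are uncertain to that degree. Hist3h2a, which shares 2.0%, and Hist1h2ac, which shares 11.6%, are less affected. Outside H2A, the H1 gene Hist1h1e shares 32.0% of its words with other histone genes, and 23.8% with Hist1h2be. Its values are uncertain to that degree.

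Per kilobase of deposited gene length, in tubes without 4sU, Hist1h2ao was highest at 869 ± 47.8 CPM per kb (SD, n = 2), and Hist1h2ap stood at 867 ± 47.4. These are the deposited values of each copy, and the pair together held 835 CPM before division by length. A level per kilobase depends on how reads cover a gene, and the library preparation is not stated. H2afz followed at 483 ± 9.15 and H3f3b at 230 ± 3.29. H2afv (102 ± 9.09), H1f0 (88.5 ± 2.71) and H2afj (85.2 ± 8.40) came next, of which H1f0 and H2afj did not differ beyond their spread. H2afx (42.3 ± 5.62) and H2afy (41.9 ± 0.419) lay together, above H3f3a (25.7 ± 1.36) and H2afy2 (11.4 ± 2.76). Apart from the leading pair, no replication-dependent gene exceeded Hist1h3d, an H3 gene, at 10.8 ± 3.20 CPM per kb. H1fx was the lowest variant at 4.71 ± 1.63. The order of the first 4 genes was the same in fixed cells without 4sU.

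**Figure D1:**
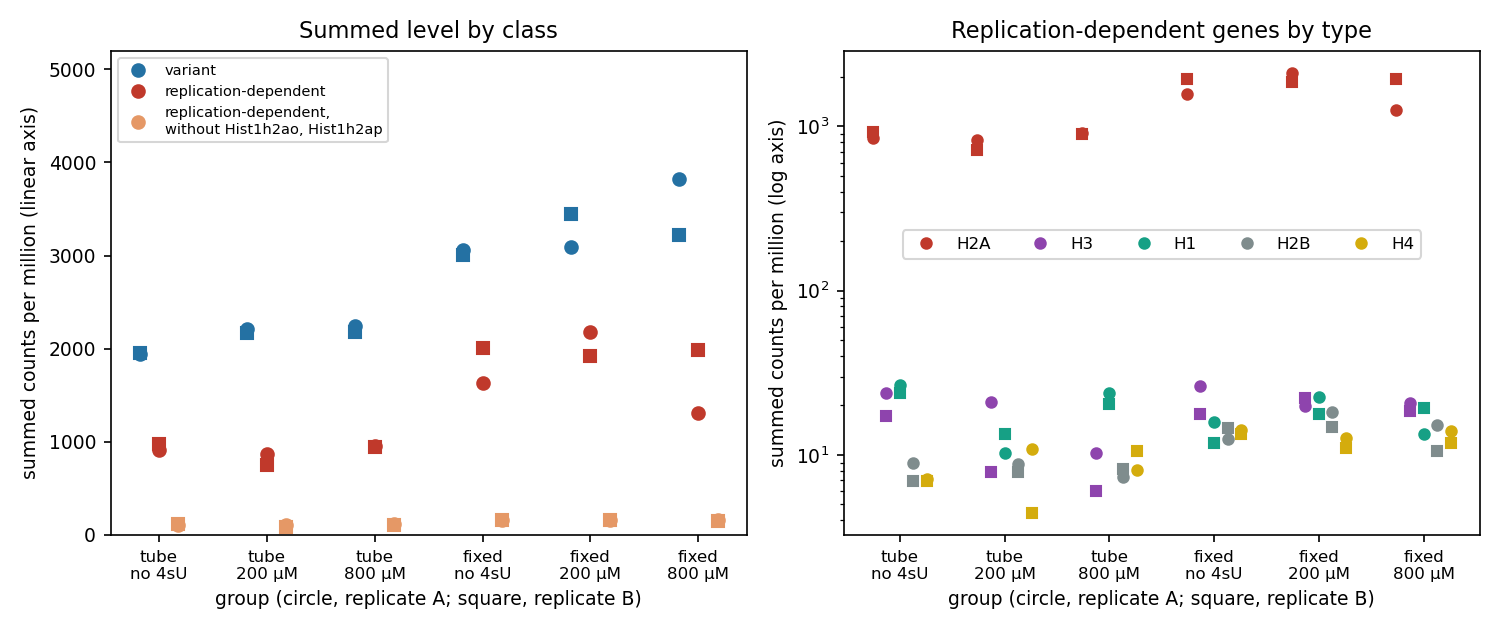
Left, summed CPM of each class in each library (linear axis, circle for replicate A and square for replicate B); right, replication-dependent genes split by histone type on a log axis. Both classes lie higher in the fixed libraries than in the tube libraries, and H2A genes carry nearly all replication-dependent counts.

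Without 4sU, the summed level of each class was higher in the fixed-cell libraries than in the tube libraries. Of 32 tested histone genes, 13 were called higher and 1 lower, beside 16.2% higher and 15.2% lower over all genes. The summed replication-dependent level was 908 and 982 CPM in the tubes and 1636 and 2002 CPM in fixed cells, and the groups did not overlap. The summed variant level was 1947 and 1953 CPM in the tubes against 3008 and 3058 CPM in fixed cells, again without overlap. With 2 libraries a group an exact permutation test of a sum cannot pass 0.05, so the sums carry no test. The replication-dependent sum is mostly the H2A pair and the variant sum mostly H2afz and H3f3b. The types did not all move alike: the H1 sum was 26.5 and 24.0 CPM in tubes against 15.8 and 11.8 CPM in fixed cells, and the H3 sum was 23.8 and 17.3 against 26.1 and 17.8 CPM, with overlap.

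Gene by gene, 9 of 22 tested replication-dependent genes were higher and 1 was lower in fixed cells by edgeR's quasi-likelihood test at a BH-adjusted p of 0.05, with a median log2 difference of 0.99. Of the 10 variants, 4 were higher and 0 lower, with a median of 0.42. Over all 11080 genes, 31.4% were called, 16.2% higher and 15.2% lower, with a median of -0.01. By type, 9 of 12 tested replication-dependent H2A genes were higher, and 0 of the 10 genes of other types were higher and 1, Hist1h1e, was lower. Because the H2A genes share sequence, those 9 calls are not 9 independent measurements.

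Hist1h2ao was at 401 and 433 CPM in the tubes and 737 and 922 CPM in fixed cells. The groups did not overlap, and the log2 difference was 0.99 (SE 0.18, adjusted p = 0.000379 by edgeR). Hist1h2ap gave the same values to within 1 CPM in each of these 4 libraries.

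Among the smaller H2A genes the differences were larger. Hist1h2ag went from 4.83 ± 0.303 to 13.1 ± 1.87 CPM (SD, n = 2), a log2 difference of 1.46. Hist1h2ab went from 2.46 ± 0.959 to 8.44 ± 1.04 CPM (log2 1.76), and Hist1h2ad from 2.34 ± 1.13 to 7.91 ± 1.15 CPM (log2 1.75). Without tube no-4sU replicate B these became 2.31 for Hist1h2ab and 2.46 for Hist1h2ad, and without replicate A 1.41 and 1.33. Hist1h2ah (1.71, and 2.36 without tube no-4sU replicate B), Hist1h2ai (1.55), Hist1h2ae (1.33, and 1.93 without that library) and Hist1h2ac (1.01) were also higher on the log2 scale. Of these, Hist1h2ae and Hist1h2ac lost the call without tube no-4sU replicate A (0.96 and 0.73) or without fixed no-4sU replicate B (1.15 and 0.77). Hist3h2a, the H2A gene on chromosome 11, had a log2 difference of 0.54 that did not pass the test, and the near-identical pair Hist2h2aa1 and Hist2h2aa2 had -0.82 and -0.96, also not past it.

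Hist1h1e, a linker histone H1 gene with the shared sequence given above, went the other way. It was at 14.9 and 8.92 CPM in the tubes and 5.35 and 2.72 CPM in fixed cells, without overlap, a log2 difference of -1.58 (SE 0.43, adjusted p = 0.00944 by edgeR). The call was lost without tube no-4sU replicate A (-1.17) and without fixed no-4sU replicate B (-1.19). The H1 genes Hist1h1b (-1.24) and Hist1h1c (-0.28) did not pass the test. Of the other types, none passed the test. The H3 gene Hist1h3d was at 16.4 and 10.7 CPM against 16.6 and 10.7 CPM, a log2 difference of 0.01, and Hist1h3c had 1.22. The 3 tested H4 genes had 1.36 (Hist1h4b), 0.99 (Hist1h4i) and -0.00 (Hist4h4), and of the 2 tested H2B genes Hist1h2bc had 0.25 and Hist1h2bp averaged 0.292 CPM in tubes and 1.51 CPM in fixed cells. All but Hist1h3d of these averaged under 20 counts, so a difference the size of that of the H2A pair was not shown to be absent.

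H2afz had the largest difference among the variants. It was at 523 and 509 CPM in the tubes and 1313 and 1167 CPM in fixed cells, 2.40-fold higher (log2 1.26, SE 0.14, adjusted p = 7.13e-06 by edgeR). H2afv, the other H2A.Z gene, was at 156 and 177 CPM against 271 and 258 CPM (log2 0.67). Neither gene overlapped between the groups.

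Both H3.3 genes were also higher in fixed cells. H3f3a was at 75.8 and 70.3 CPM against 121 and 126 CPM (log2 0.76). H3f3b was at 585 and 573 CPM against 729 and 839 CPM, a log2 difference of 0.44, which stayed called in 1 of 4 fits that left out a library, the one without fixed no-4sU replicate A (0.30 to 0.54 over the 4). The other variants, H2afx (0.45), H1fx (0.40), H1f0 (0.19), H2afj (-0.15), H2afy (-0.24) and H2afy2 (-0.32), did not pass the test.

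**Figure D2:**
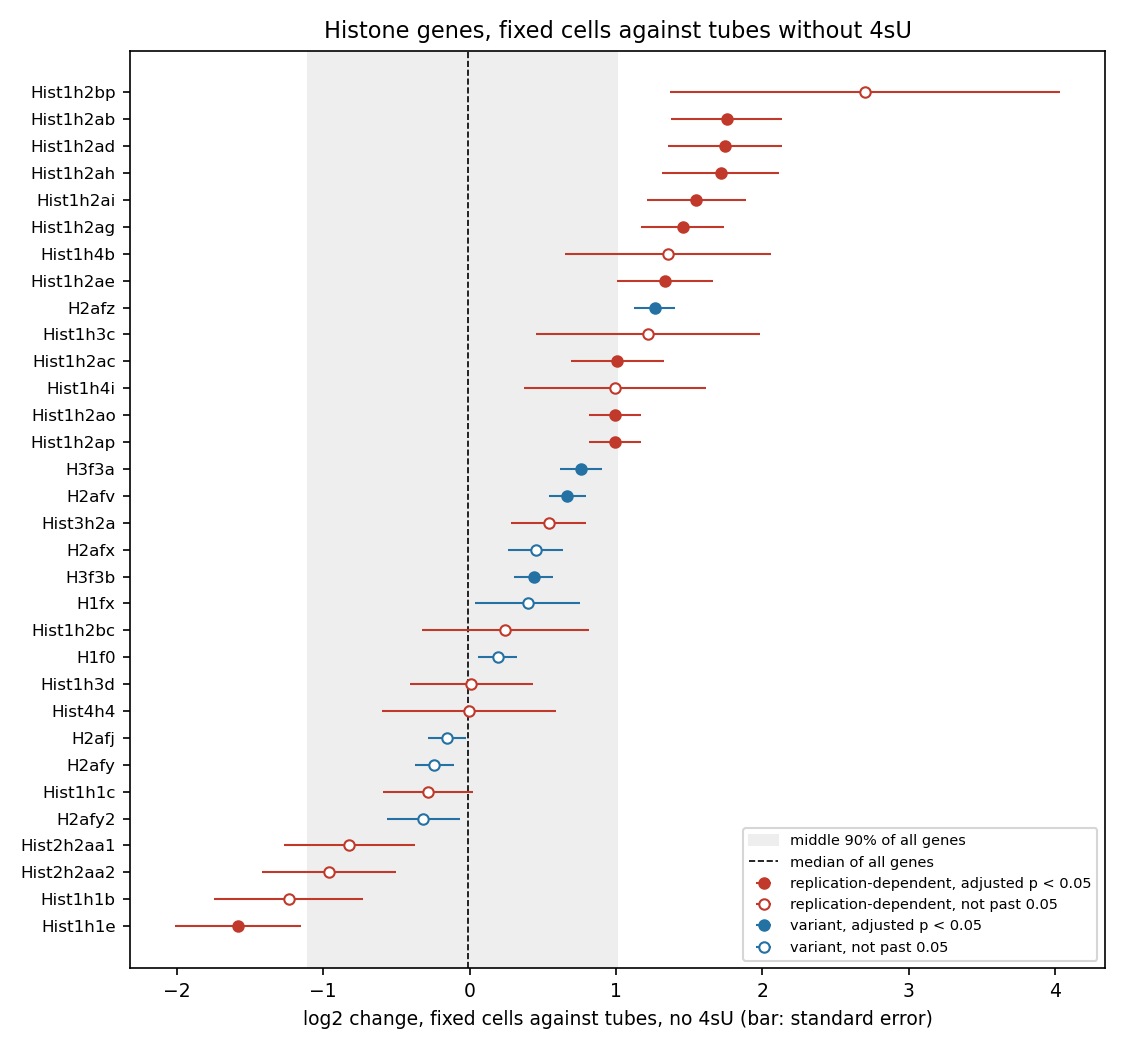
Log2 difference between fixed cells and tubes without 4sU for the 32 tested histone genes (bar, standard error; filled, BH-adjusted p under 0.05 by edgeR), with the middle 90% of all 11080 genes shaded. The 9 higher replication-dependent genes are all of the H2A type, and Hist1h1e is the 1 gene called lower.

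Gene length moved with this difference across the whole table. Spearman's rho between deposited length and log2 difference was -0.42 over 11080 genes, given as a description, since genes of a library are not independent. In the shortest 10% of genes, of at most 1374 bases, the median was 0.52 and 43.7% were called higher, and in the longest 10% the median was -0.50 with 2.08% called higher. Of the 22 tested replication-dependent genes, 17 lay in that shortest 10%, with a class median of 625.5 bases, and 8 of their 10 calls lay there. Of the 10 variants, 2 lay there, H2afz (1069 bases) and H1fx (1217 bases), and 1 of the 4 calls. Within that shortest 10%, 8 of 17 replication-dependent genes were called higher, beside 43.7% of all short genes. All 8 are of the H2A type and are not independent measurements. Outside it lay the calls of Hist1h2ac (2482 bases, higher) and Hist1h1e (1930 bases, lower). The part of length in the histone differences was not tested.

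**Figure D3:**
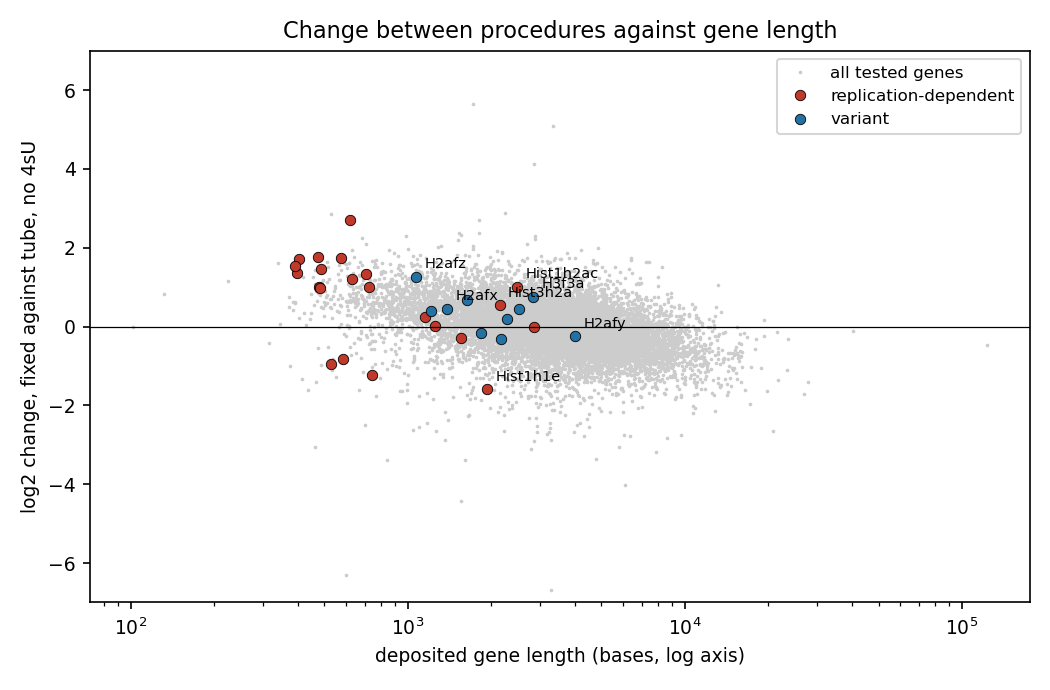
Log2 difference between fixed cells and tubes without 4sU against deposited gene length (log axis) for all 11080 tested genes, with the histone genes marked. Most replication-dependent genes lie at the short end, where the grey cloud is above 0, while Hist1h1b, Hist2h2aa1 and Hist2h2aa2 lie below 0 there and Hist1h1e lies below 0 at 1930 bases.

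Scaling also moved the size of the difference. Scaling on the 1846 genes with the lowest new-to-total ratio (low-ratio scaling) shifted the median of all genes to -0.35, the replication-dependent median to 0.65 and the variant median to 0.08. A change of scaling moves all genes by nearly the same amount. The place of both classes above the median of all genes was therefore fixed in advance. Members called higher went from 13 to 11 and members called lower from 1 to 7, while over all genes the shares went to 6.79% higher and 32.7% lower. Of the 14 calls 12 were shared. H3f3b (0.09) and Hist1h2ac (0.67) lost their calls, and H2afj (-0.49), H2afy (-0.59), H2afy2 (-0.66), Hist1h1b (-1.58), Hist2h2aa1 (-1.16) and Hist2h2aa2 (-1.30) were called lower. Variants were then 3 higher and 3 lower, and replication-dependent genes 8 higher and 4 lower. The differences of H1f0 (-0.15), Hist1h3d (-0.33) and Hist1h2bc (-0.09), none called, changed sign.

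Genes around histone supply were compared by lists. Of 21 tested genes of histone mRNA processing and transcription, 2 were higher (Lsm10, a U7 particle protein, log2 0.57, and Ncbp1, a cap-binding protein, 0.42) and 1 was lower (Papd5, a poly(A) polymerase, -0.58). The list's median was -0.02, and these counts stand against 16.2% higher and 15.2% lower over all genes. Slbp (0.24) and Npat (-0.46), the coactivator of histone gene transcription, did not pass the test. Under low-ratio scaling 0 of the 21 were higher and 7 lower, Npat (-0.81) among them, and Slbp was at -0.11.

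Of 33 tested chaperones and exchange factors, 12 were higher (36.4%) and 7 lower (21.2%), with a median of 0.22. Factors of H2A.Z exchange moved both ways: Vps72 (0.99), Ruvbl1 (1.03) and Anp32e (0.57), which removes H2A.Z, were higher. Srcap (-2.19), the ATPase of an H2A.Z-loading complex that also holds Vps72, and Ino80 (-1.13) were lower. Srcap had a low level, 6.41 CPM in tubes and 1.38 CPM in fixed cells. Ubn2 (-1.52), of the HIRA complex that deposits H3.3, was also lower, and Hat1 (1.12) was higher. Of 39 S phase genes, 13 were higher (33.3%) and 4 lower (10.3%), with a median of 0.24. Tk1, thymidine kinase, was at 148 CPM in tubes and 398 CPM in fixed cells (log2 1.43) and had the largest difference of the list. The 4 lower genes were Ccne2 (-1.03), Pole (-0.66), Uhrf1 (-0.57) and Rfc5 (-0.40). Under low-ratio scaling the chaperones were 5 higher and 10 lower, with a median of -0.12. The S phase genes were then 4 higher and 10 lower, with a median of -0.11, and the median of all genes was -0.35. Scaling shifts all genes nearly alike, so the order of these medians could not change. These S phase values stand beside the histone differences, and their part in them was not tested.

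Few histone genes were called after labelling, and few genes of any kind were. In tubes at 200 µM 4sU, 0 of 32 members rose and 2 fell, H2afx and Hist1h1e. Over all 11080 genes 262 rose and 154 fell, 3.75% called in all. At 800 µM in tubes 0 members were called (1.87% of all genes), and in fixed cells 0 at 200 µM (0.812%) and 0 at 800 µM (2.66%). By unadjusted p under 0.05, edgeR gave 6 members in tubes at 200 µM, 7 in tubes at 800 µM, 2 in fixed cells at 200 µM and 3 in fixed cells at 800 µM, of 32 each. Over all genes the shares were 20.8%, 17.6%, 12.6% and 20.1% in the same order, so the members' counts were near or under the background. DESeq2 called 1, 0, 0 and 0 members in the same order, of the 12, 25, 14 and 14 to which it gave an adjusted p. The shares of all genes that DESeq2 called are not given here, so these counts have no background beside them.

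H2afx, the variant with a stem-loop, was at 64.0 and 53.0 CPM in tubes without 4sU and 39.6 and 29.9 CPM at 200 µM. The groups did not overlap, and it fell by 0.75 on the log2 scale (SE 0.20, adjusted p = 0.0428 by edgeR). The call was lost in all 4 fits that left out 1 library (-0.96 to -0.56, largest adjusted p = 0.298). In the other comparisons H2afx had log2 changes of -0.47 (tube, 800 µM), -0.21 (fixed, 200 µM) and -0.55 (fixed, 800 µM), none past the test.

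Hist1h1e was at 14.9 and 8.92 CPM in tubes without 4sU, 2.58 and 2.22 CPM at 200 µM, and 7.65 and 4.39 CPM at 800 µM. It fell at 200 µM, with a log2 change of -2.3 (SE 0.47, adjusted p = 0.0154 by edgeR), and this call held without tube no-4sU replicate B and was lost in the other 3 fits that left out a library (-2.63 to -1.89 over the 4). In fixed cells it was at 5.35 and 2.72 CPM without 4sU and 8.15 and 6.48 CPM at 200 µM, a log2 change of 0.89 that did not pass the test. These values rest on 9 to 62 counts a library.

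The difference between the procedures in the 4sU effect was tested directly. At 200 µM 0 members and 0 of 11080 genes (0%) were called by edgeR, with 2 members at unadjusted p under 0.05, and at 800 µM 0 members and 0 genes (0%), again with 2 members. Over all genes 8.96% and 5.90% had an unadjusted p under 0.05. DESeq2 called 0 members at either dose. Hist1h1e had the smallest p at 200 µM, with a difference of 3.19 (SE 0.64, adjusted p = 0.147 by edgeR), and it was called when only the 4 groups compared entered the fit and when no filter was applied. The next smallest was Hist1h1b at 1.62 (adjusted p = 0.542). At 800 µM the smallest were Hist1h2bp at -5.31, on under 14 counts in each library, and Hist1h2ag at -0.88 (adjusted p = 0.822 for both).

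**Figure D4:**
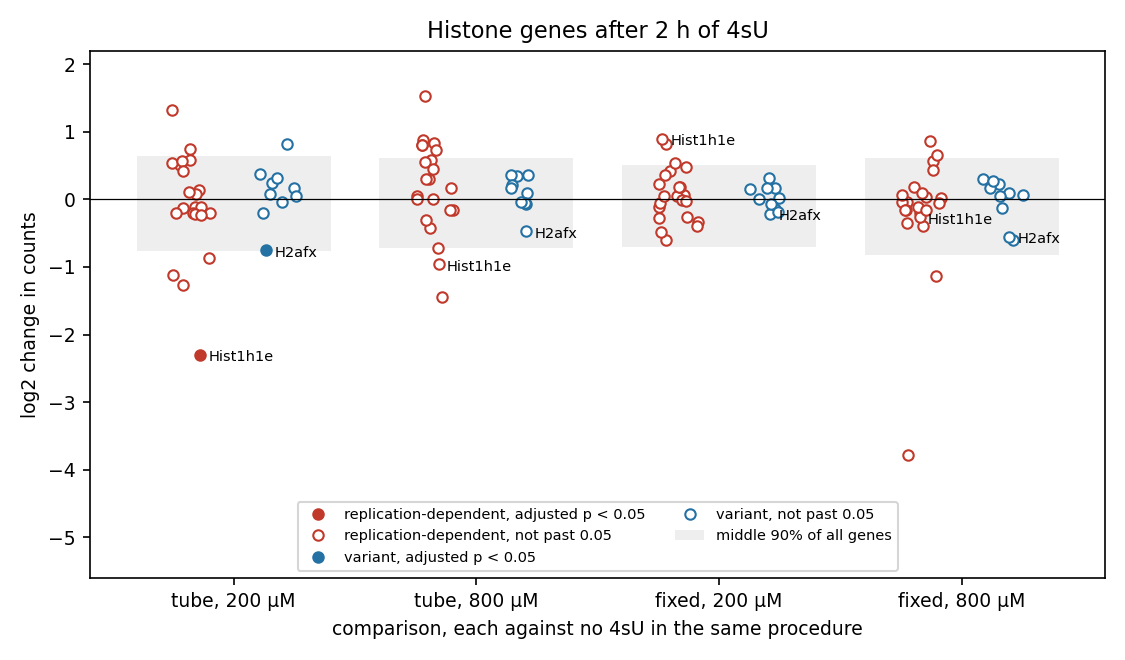
Log2 change in counts after 2 h of 4sU for the 32 tested histone genes in 4 comparisons (red, replication-dependent; blue, variant; filled, BH-adjusted p under 0.05 by edgeR), with the middle 90% of all genes shaded. H2afx and Hist1h1e in tubes at 200 µM are the 2 filled points, and the comparisons of a procedure share their controls.

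The abundant H2A pair did not move evenly within its groups. Hist1h2ao was at 382 and 334 CPM (tube, 200 µM), 422 and 417 CPM (tube, 800 µM), 1010 and 882 CPM (fixed, 200 µM) and 576 and 917 CPM (fixed, 800 µM). Replicate A of the last group was low for this pair, while H2afz was at 1666 CPM there against 1378 CPM in replicate B and H3f3b at 1062 against 830 CPM. That library also had the lowest scaling factor, 0.835, and the lowest median new-to-total ratio, 25.95%. Without fixed 800 µM replicate B, so with replicate A alone in the group, 4 members were called at 800 µM in fixed cells: Hist1h2ao, Hist1h2ap, H2afx and H3f3b. That was 4 of 37 tested members, and 10.6% of all genes were called in the same fit, in which the lone library is assumed to vary like those of the other groups.

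The deposited new-to-total ratio estimates the share of a gene's RNA made during the 2 h of labelling. It exists for the 8 labelled libraries, with no unlabelled background. With at least 100 counts in each, 10 histone genes and 5538 genes in all were compared. The replication-dependent pair lay high in this range: Hist1h2ao averaged 74.9% ± 4.89 (SD over 8 libraries of 4 groups; 65.8% to 80.2%), the 86.0th percentile of all genes, whose median was 35.3%.

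Variants covered almost the whole range below. H1f0 averaged 54.4% ± 4.72 and H3f3b 44.3% ± 5.51. H2afx (36.6% ± 8.08) lay next to the median of all genes, followed by H2afy (25.1% ± 6.49), H2afz (20.2% ± 5.82) and H2afj (15.9% ± 3.28). H3f3a (10.8% ± 4.38) and H2afv (6.30% ± 1.80) were lowest, and H2afv stood at the 0.325th percentile of all genes. Hist1h2ap was above H1f0, H2afx and H2afz in 8 of 8 libraries, with deposited 0.05 to 0.95 quantile ranges that did not overlap in any of them.

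The H3.3 and H2A.Z genes differed in ratio within each pair. H3f3a and H3f3b encode the same H3.3 protein, and H3f3b had the higher ratio in 8 of 8 libraries, 2.83 to 7.17 times that of H3f3a. The quantile ranges were apart in all 8. H2afz was likewise 2.06 to 4.86 times H2afv, with ranges apart in 8 of 8. In both pairs the gene with the higher level also had the higher ratio. The macroH2A genes were not separated in this way: H2afy averaged 25.1% and H2afy2, at the lower level, 29.3%, with H2afy2 higher in 5 of 8 libraries and quantile ranges apart with H2afy2 above in 2.

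Smaller replication-dependent genes had wide ratios. With at least 20 counts in each labelled library, 8 further members could be read. The medians over 8 libraries were 81.7% for Hist1h2ai, 76.1% for Hist1h2ac, 67.2% for Hist1h2ag, 52.0% for Hist3h2a, 43.2% for Hist1h1c and 42.3% for Hist1h2ae. Their median quantile ranges spanned 26.4 to 48.6 percentage points, against 7.51 for Hist1h2ap, and those of the H2A genes on chromosome 13 carry the shared reads described above. The variants H2afy2 (30.2%) and H1fx (5.26%) completed the set. Every one of the 8 replication-dependent genes read had a median above 35.3%, and 3 of 10 variants did. That 35.3% is the median of mean ratios over genes with at least 100 counts, an unlike reference for genes read at 20. The 8 are not independent, since Hist1h2ao and Hist1h2ap are 1 signal and other H2A genes share reads. Single libraries could lie under it, as for Hist1h2ae (20.9% to 60.9%).

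**Figure D5:**
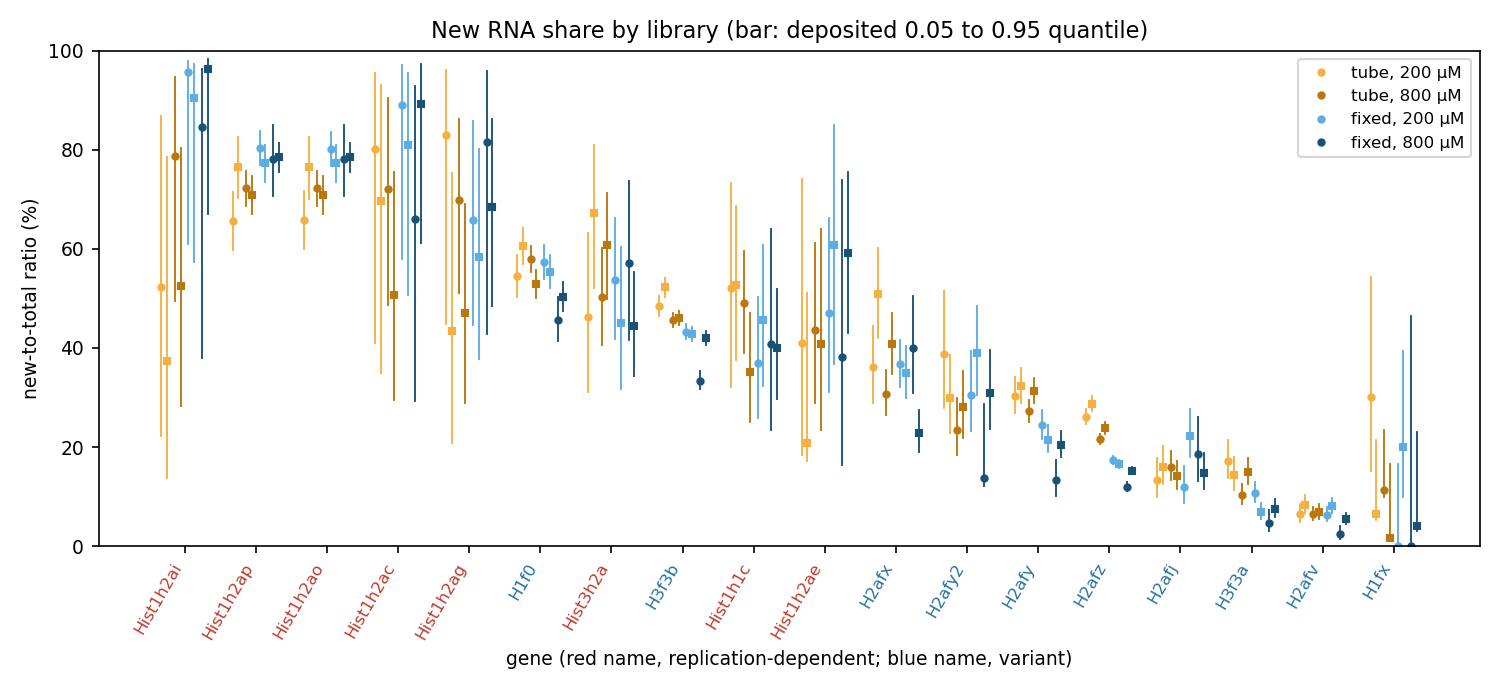
New-to-total ratio of the 18 histone genes with at least 20 counts in each labelled library, 1 point per library (circle, A; square, B), with the deposited 0.05 to 0.95 quantiles as bars. Hist1h2ao and Hist1h2ap lie between 65.7% and 80.4% in every library, and H2afv stays at or under 8.28%.

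Between the procedures, the H2A pair and most variants differed in opposite directions, without passing the test. Hist1h2ao was at 65.8% and 76.5% (tube, 200 µM), 72.2% and 70.8% (tube, 800 µM), 80.2% and 77.3% (fixed, 200 µM) and 78.1% and 78.5% (fixed, 800 µM). Fixed and tube libraries did not overlap, and the differences were 7.62 points at 200 µM (adjusted p = 0.52 by limma) and 6.81 points at 800 µM (adjusted p = 0.524). Among all 5538 genes, 30.2% had a higher ratio in fixed cells at 200 µM and 17.1% at 800 µM.

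H2afz was at 26.1% and 28.7% (tube, 200 µM), 21.6% and 23.8% (tube, 800 µM), 17.3% and 16.6% (fixed, 200 µM) and 11.96% and 15.2% (fixed, 800 µM). All fixed values lay below all tube values, with differences of -10.4 points at 200 µM (adjusted p = 0.126 by limma) and -9.16 points at 800 µM (adjusted p = 0.122). H2afy went from 31.3% to 23.0% at 200 µM and from 29.2% to 16.9% at 800 µM (adjusted p = 0.138 by limma). H3f3b differed by -7.31 and -8.20 points, and H3f3a by -6.90 and -6.62 points. H2afj had higher means in fixed cells by 2.47 and 1.59 points, and its groups overlapped at both doses. Medians of all genes were 39.8% to 42.3% and 36.2% to 36.4% in tubes, and 34.8% to 35.7% and 25.95% to 32.1% in fixed cells, at 200 and 800 µM.

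By limma on the logit scale, 0 of 10 members passed in any of the 4 ratio comparisons, against 0%, 0% and 0% of all genes for fixed against tube at 200 µM, at 800 µM and the dose step in tubes, and 0.0181% for the dose step in fixed cells. At unadjusted p under 0.05 there were 2, 3, 0 and 0 of the 10 members, against 19.1%, 20.3%, 8.45% and 16.6% of all genes. With a minimum of 300 counts, H2afy and H2afz were called at 800 µM between the procedures, with 4.62% of all genes. Without fixed 800 µM replicate B, H2afv, H2afy and H2afz were called there, and H2afv in the fixed dose step, in fits that called 16.9% and 10.6% of all genes and rest on 1 library in that group. From 200 to 800 µM, the ratio of the H2A pair differed by at most 0.51 points in either procedure, with SDs of 0.290 to 7.71 points, while H2afz differed by -4.68 points in tubes and -3.40 points in fixed cells, neither past the test.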

How the data were processed

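RNA from 12 NIH-3T3 libraries, 2 in each of 6 groups, was described from 1 deposited table, in which 0 per-sample columns lacked a sample. Of its deposited expected counts, 16.2% to 22.0% in a library were not whole numbers. The deposited new-to-total ratio is a fraction per the file headers, given for 8 libraries as a maximum a posteriori value, mean and 0.05 and 0.95 quantiles; the deposited alpha and beta are scores and were not used for results. Tools listed in the submitters' processing notes, with no role attached, are STAR 2.7.10b, Bowtie2 2.3.0 and cutadapt. Not given in the sources used here: genome build, annotation, read assignment, ratio estimator and library preparation. How shared reads were divided therefore bears on every H2A value above, and on those of Hist1h1e.

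Counts were rounded to whole numbers and tested with edgeR 4.0.16 in R 4.3.3: filterByExpr (minimum count 10, minimum total 15), TMM, 1 quasi-likelihood fit of 6 groups without a block, 7 comparisons, Benjamini-Hochberg (BH) adjustment over all 11080 genes at 0.05. The fit had 6 residual degrees of freedom and a common biological coefficient of variation of 12.3%. Ratios, bounded at 0.001 and 0.999, were tested on the logit scale with limma 3.58.1 (trend) in genes with 100 counts in each labelled library, in 4 comparisons. DESeq2 1.42.0 was an alternative. Both tests were tested on simulated data. For fixed against tube, 89% of 2-fold and 100% of 4-fold changes were recovered among 10911 genes. Those changes were placed only in genes of higher mean count, and every gene had the same spread. The recovery therefore does not cover members with few counts.

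Each of the 74 IDs had an entry in GENCODE M21 (GRCm38), whose transcripts gave the sequences and coordinates by gene ID. Sequence sharing was counted in 50-base words. Named were all variants, replication-dependent genes averaging 20 counts or more, every member past the threshold or else the 2 of smallest p, and from 3 pathway lists up to 4 called genes plus Slbp, Npat and Anp32e. Hist1h1b, Srcap, Ino80 and the 4 lower S phase genes were chosen after their values were seen. So were replication-dependent genes of lower count that are named beyond that rule. The members and lists were chosen with earlier results of these data known. Replicate letters were checked for pairing: deviations of replicate A correlated at -0.10 to 0.09 over 15 pairs of groups. Pairing by letter was therefore not seen, though noise in low counts could hide it. Replicate pairs differed beyond counting noise, with chi-square per degree of freedom of 3.15 to 21.5.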

Additional observations from a re-analysis of the deposited data

How the results depend on the processing

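No called difference of a single gene changed direction under any alternative run, and neither did the summed class levels between fixed cells and tubes without 4sU. The count of 14 members called between fixed cells and tubes without 4sU stayed within 1.5 times under every alternative, the replicate block (14) and DESeq2 (14) included, but under low-ratio scaling its make-up changed from 13 higher and 1 lower to 11 higher and 7 lower, with 12 calls shared. Of those sums, the replication-dependent log2 difference of 0.94 became 0.60 under low-ratio scaling, and the variant one of 0.64 became 0.47 with library totals and 0.29 under low-ratio scaling. With the replicate block, 1 member was called in tubes at 200 µM (Hist1h1e) and 1 at 800 µM (Hist1h3d). Pairing by letter was not seen and not excluded, and the block moved no other count of member calls by over 1.5 times. Without the filter, 1 member each was called in tubes at 800 µM (Hist1h3d), in fixed cells at 800 µM (H2afx) and for the difference between procedures at 200 µM (Hist1h1e). Low-ratio scaling called 1 member in fixed cells at 800 µM (H2afx), DESeq2 called 1 in tubes at 200 µM (H2afx), and fitting only the groups compared called 1 for the difference at 200 µM (Hist1h1e). Leaving out 1 library gave 0 to 1 members in tubes at 200 µM, 0 to 4 in fixed cells at 800 µM, 0 to 3 for the ratio between procedures at 800 µM and 0 to 1 for its dose step in fixed cells. The ratio count minimum of 300 gave 2 members between procedures at 800 µM. Low-ratio scaling called 0.361% of all genes higher and 6.46% lower in fixed cells at 800 µM, beside its 1 member. The other counts of member calls in this paragraph stand without the share of all genes in the same run. They are therefore not read as results about the histone genes. The cause of the changed counts was not tested. Low-ratio scaling turned the variant medians in all 4 labelling comparisons below 0, with medians of all genes of -0.16, -0.14, -0.11 and -0.18, and the summed variant level in tubes at 200 µM was then 2325 CPM against 2369 CPM without 4sU, in place of 2187 against 1950 CPM. Of 159 values for single called genes under the alternatives, 140 kept their call and 19 lost it. Only 22 of 64 replication-dependent genes passed the filter on low counts, and 2 libraries a group limited every comparison; a change that missed the threshold is not shown to be absent.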
